A study of Mus musculus with 9 samples.

Results

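Hspa5, Hsp90b1, Sdf2l1, Asns and Trib3 are 5 of the 2402 genes in a table of normalized counts from sorted mouse bone marrow cells, and were chosen by name as genes of endoplasmic reticulum (ER) stress and of the amino-acid response. The labels describe 9 samples from male C57BL/6 mice made by crossing Flt3-cre to the mTmG reporter, in which cells are red (Tom+) by default and turn green (GFP+), with all their progeny, once Cre is expressed. There were 2 samples of Tom+ megakaryocyte progenitors (MkP), 2 of Tom+ haematopoietic stem cells (HSC) and 2 of GFP+ MkP from old mice of 18 to 20 months, and 3 samples of young GFP+ MkP, from mice aged 3 months. MkP were sorted as lineage-negative cKit+ Sca1- CD150+ CD41+ cells and HSC as lineage-negative cKit+ Sca1+ CD150+ Flk2- cells. The labels do not say whether animals were pooled or whether samples came from separate animals. The table has 9 rows without names, so no row could be tied to a sample or a group, and no comparison by age, reporter or cell type was made. Libraries are numbered 1 to 9 by row, as a name only.

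The ER chaperones fold proteins that enter the secretory pathway, and the unfolded protein response raises their transcription through ATF6 and XBP1 when misfolded protein builds up there. A separate arm, the integrated stress response, is started by lack of amino acids through the kinase GCN2 or by ER stress through PERK. It raises translation of the transcription factor ATF4, which induces genes of amino-acid supply and of stress signalling. Megakaryocytes make large amounts of membrane and granule protein for platelets, while stem cells are known for a low rate of protein synthesis.

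The promoters are shown because ATF6 and XBP1 on one side and ATF4 on the other are known to act through different sequence elements, which were searched for here. Sequences are from RefSeq on the GRCm38.p6 build, 5′ to 3′ on the gene's own strand, and all 5 genes matched by symbol. The first 4 cover the 250 bases before the annotated start, and that of Trib3 is a window of 30 bases around its match, from base 4 to base 33 after the start. They lie at chr2:34771840-34772089 (plus strand), chr10:86705445-86705694 (minus), chr16:17132384-17132633 (minus), chr6:7693210-7693459 (minus) and chr2:152344028-152344057 (minus). Capitals mark matches to the ER stress response element (ERSE, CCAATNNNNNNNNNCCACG) or to the core of the C/EBP-ATF response element (CARE, TGATGNAA), on either strand.
Hspa5: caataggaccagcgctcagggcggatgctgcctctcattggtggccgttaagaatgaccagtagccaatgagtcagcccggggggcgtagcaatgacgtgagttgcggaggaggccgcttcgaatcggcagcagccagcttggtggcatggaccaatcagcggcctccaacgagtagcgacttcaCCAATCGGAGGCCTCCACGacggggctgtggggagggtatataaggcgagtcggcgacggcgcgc
Hsp90b1: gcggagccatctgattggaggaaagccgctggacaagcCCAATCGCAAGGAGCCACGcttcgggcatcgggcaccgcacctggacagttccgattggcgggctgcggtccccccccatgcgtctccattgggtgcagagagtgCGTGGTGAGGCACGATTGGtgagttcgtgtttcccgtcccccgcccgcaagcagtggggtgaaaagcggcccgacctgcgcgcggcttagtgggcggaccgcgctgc
Sdf2l1: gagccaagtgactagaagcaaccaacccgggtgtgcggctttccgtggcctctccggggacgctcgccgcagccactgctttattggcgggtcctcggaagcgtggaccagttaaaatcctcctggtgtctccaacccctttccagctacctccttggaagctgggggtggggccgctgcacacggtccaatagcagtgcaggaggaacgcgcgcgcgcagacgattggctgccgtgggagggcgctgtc
Asns: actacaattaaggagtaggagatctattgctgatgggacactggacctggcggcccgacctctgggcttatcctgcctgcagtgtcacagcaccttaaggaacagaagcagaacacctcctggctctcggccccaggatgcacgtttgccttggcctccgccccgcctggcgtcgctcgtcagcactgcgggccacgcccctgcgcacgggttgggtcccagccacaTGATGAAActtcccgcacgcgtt
Trib3: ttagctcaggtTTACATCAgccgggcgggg

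Windows from 250 bases before to 50 after the start were searched on both strands. Positions count from the RefSeq start. For all members but Sdf2l1 this differs from the 5′ end of the GENCODE gene given below, so a match can lie on the other side of that end. Hspa5 held 1 ERSE, from -65 to -47, and Hsp90b1 held 2, from -212 to -194 and, on the other strand, from -107 to -89. The ERSE was present in 0.119% of 32851 RefSeq windows of this length. Asns held 1 CARE core, from -23 to -16, and Trib3 held 1 on the other strand, from 15 to 22 after the start, against 3.97% of all windows. Sdf2l1 held no match to either, and 4 matches to CCAAT, the first 5 letters of the ERSE, which 37.4% of windows hold. No member matched the related elements ATTGGNCCACG or TGACGTGG, which 0.0365% and 0.676% of windows hold. A match is a description of the letters and not a site of binding. The members and the elements were both chosen for the same known responses, so the shares over all windows do not test the matches.

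Libraries 3 and 4 stood apart from the other 7 in markers of the sorted cells. Here and below, a measured gene is one of the 2402 deposited genes. How these were picked is not given, so shares over them are not shares over all genes of the mouse. The summed level of the 9 measured of 13 megakaryocyte markers was 7191 and 13198 normalized counts in libraries 3 and 4, and 87328 to 165573 in the others. The 9 measured of 13 HSC markers summed to 25728 and 16436 in libraries 3 and 4, 1787 in library 8 and 1380 in library 9, and 193 to 414 in the other 5. Expression was filtered at 10 normalized counts, reached in 2 libraries or more, which 2341 genes passed. Of these, 41% had their 2 lowest values in libraries 3 and 4, and 51% had their 2 highest values there. A gene that passed the filter through libraries 3 and 4 alone falls in the 51% because of the filter. Without these libraries 2133 genes passed. Libraries 3 and 4 were not tied to a labelled group. They were set beside the other 7 after the values were seen, and values without them are given beside the ranges. The labelled cell types could not be checked library by library, since the rows have no labels.

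The 3 chaperones and Asns were lowest in library 3 and next lowest in library 4, and Trib3 was highest in library 3 and next highest in library 4. In direction, the contrast in these data therefore ran between Trib3 and the other 4 genes, and not between the chaperones and the amino-acid response genes. The 4 genes did not fall by the same amount. Per read of Asns there were 0.198 and 0.381 reads of Sdf2l1 in libraries 3 and 4, against 1.04 to 1.78 in the others. All 5 passed the expression filter, and the reads of all 5 differed between libraries beyond counting error (chi-square test with Benjamini-Hochberg adjustment). That test called 98.7% of the 2341 genes, so passing it says little about the members. The test sets single libraries, not conditions, against each other and trusts the authors' scaling.

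**Figure D1:**
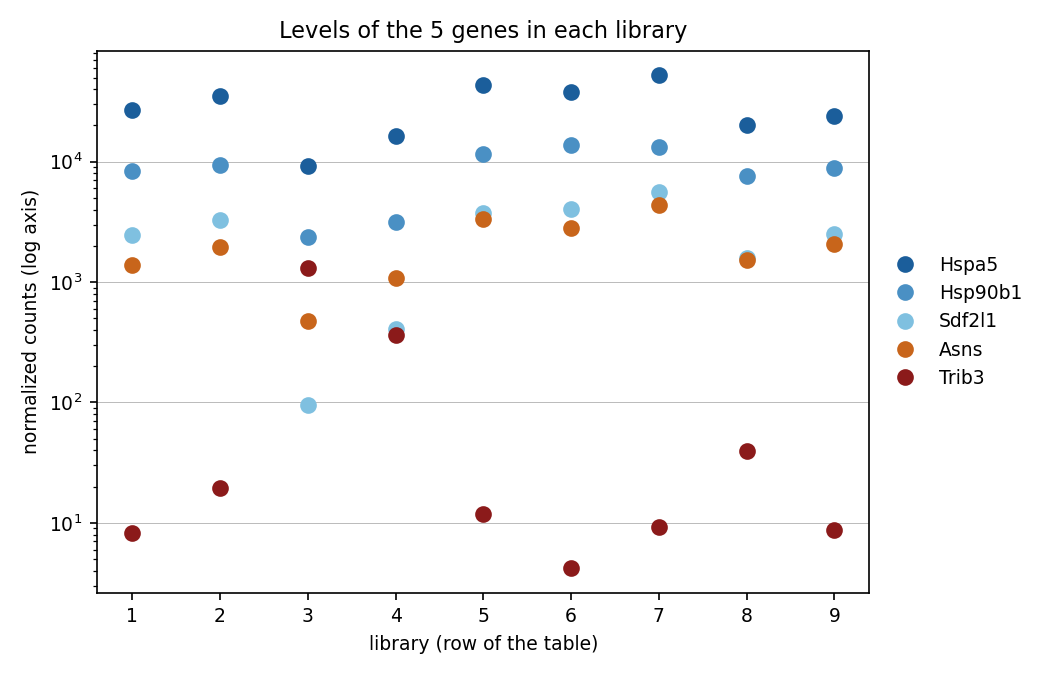
Normalized counts (vertical, log axis) of Hspa5, Hsp90b1, Sdf2l1, Asns and Trib3 in each of the 9 unnamed libraries (horizontal), 1 point per gene and library. The chaperones and Asns have their lowest points in libraries 3 and 4, where Trib3 reaches 1316 and 366 normalized counts.

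Hspa5 encodes BiP, the Hsp70 chaperone of the ER lumen that also holds the stress sensors inactive. It is protein-coding and lies on chromosome 2 from 34771970 to 34777547 (GENCODE M21, mm10). Hspa5 had 26993, 35208, 9278, 16471, 43725, 37730, 52084, 20215 and 23959 normalized counts in libraries 1 to 9. The highest value was 5.61 times the lowest (95% exact counting interval 5.48 to 5.75), and all 8 neighbours in the order of libraries were apart beyond counting error. Only 0.299% of the tested genes had a higher median, while 53.1% had a wider range, so an abundant gene had a range close to that of the middle gene of the table (6.16-fold). Without libraries 3 and 4 Hspa5 lay between 20215 and 52084, a ratio of 2.58 (interval 2.53 to 2.62), and it ranged 3.16-fold without library 3 alone. These intervals cover counting error only, and so do all those that follow.

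Hsp90b1 encodes GRP94, the Hsp90 chaperone of the ER lumen, which folds integrins and Toll-like receptors among other clients. It lies on chromosome 10 from 86690209 to 86705509. Hsp90b1 had 8444, 9442, 2359, 3158, 11634, 13886, 13167, 7628 and 8782 normalized counts in libraries 1 to 9. The range was 5.89-fold (interval 5.61 to 6.18), with library 6 highest, and all 8 neighbours in the order were apart beyond counting error. Outside libraries 3 and 4 it had the narrowest range of the members, from 7628 to 13886, a ratio of 1.82 (interval 1.77 to 1.88). Its exons overlap those of the pseudogene 1810014B01Rik on the opposite strand, and use of strand in the counting is not given in the sources used here. They also overlap those of Gm15344, a processed transcript, and Gm25745, a microRNA, on the same strand. How reads in the shared exons were assigned is not known. Of the tested genes, 1810014B01Rik had the pattern closest to Hsp90b1, and the part of shared reads in this was not tested.

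Sdf2l1 encodes an ER protein that works with BiP and its DnaJ partners to keep misfolded proteins from aggregating. It lies on chromosome 16 from 17130138 to 17132383. Sdf2l1 had 2453, 3299, 94.4, 408, 3740, 4018, 5556, 1595 and 2493 normalized counts in libraries 1 to 9. The lowest value rested on 80 reads and the highest on 3619, a ratio of 58.9 (interval 47.2 to 74.4), and 10.7% of tested genes had a wider range. Libraries 3 and 4 were far below the rest, and they also differed from each other, library 4 being 4.33 times library 3 (interval 3.39 to 5.59). Libraries 9 and 1 were the only neighbours not apart beyond counting error (ratio 1.02, interval 0.956 to 1.08). Over the other 7 libraries the ratio was 3.48 (interval 3.28 to 3.70), and without library 3 alone the range was 13.6-fold.

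Asns encodes asparagine synthetase, which makes asparagine from aspartate and glutamine and is a standard readout of ATF4. It lies on chromosome 6 from 7675169 to 7693254. Asns had 1378, 1937, 478, 1073, 3315, 2838, 4349, 1528 and 2077 normalized counts in libraries 1 to 9. The ratio of highest to lowest was 9.10 (interval 8.20 to 10.1), and 38.7% of tested genes had a wider range. Libraries 5, 6 and 7 held the 3 highest values of Asns, as they did for each chaperone, on the authors' scaling. With the libraries scaled to the total of the table this still held for Asns, but for none of the chaperones. Libraries 9 and 2 were not apart beyond counting error (ratio 1.07, interval 0.997 to 1.15), and the other 7 neighbours were. In the 7 libraries besides 3 and 4 the ratio was 3.16 (interval 2.92 to 3.41). The range was 4.05-fold without library 3 alone.

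Trib3 encodes a pseudokinase that binds Akt and ATF4 and is induced by ATF4 and CHOP. It lies on chromosome 2 from 152337422 to 152344032. Trib3 had 8.20, 19.6, 1316, 366, 12.0, 4.20, 9.21, 39.8 and 8.69 normalized counts in libraries 1 to 9. These were 5, 10, 1116, 320, 11, 3, 6, 38 and 12 reads, so the level outside libraries 3, 4 and 8 rested on few reads. The ratio of library 3 to library 6 was 314 (interval 107 to 1524), and 1.62% of tested genes had a wider range. Library 3 was 3.60 times library 4 (interval 3.17 to 4.08), and library 4 was 9.19 times library 8 (interval 6.55 to 13.2). None of the other 6 neighbours in the order was apart beyond counting error. Over the 7 libraries without 3 and 4 the ratio of library 8 to library 6 was 9.49 (interval 3.01 to 48.1). Without library 3 alone the range was 70.6-fold with a pseudocount of 1.

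Levels of different genes were compared per kilobase of annotated exons. Hspa5 was the highest of the members in every library, with a median of 6383 normalized counts per kilobase. Sdf2l1 and Hsp90b1 had medians of 2250 and 2178 per kilobase, Asns 708 and Trib3 5.62. Sdf2l1 was above Hsp90b1 in libraries 1, 2, 5, 6, 7 and 9, and below it in libraries 3, 4 and 8. The values were close in some libraries, such as 2214 and 2094 in library 1. The length taken merges all annotated exons of a gene, including those Hsp90b1 shares with other genes. With another length the order of Sdf2l1 and Hsp90b1 could differ, which was not tested. In library 3 Trib3 was second to Hspa5, at 619 per kilobase, and Sdf2l1 was last, at 85.2. In library 4 Trib3 was last, at 172 per kilobase, below Sdf2l1 at 369 and Asns at 392. It was last in the other 7 libraries too, at 1.98 to 18.7 per kilobase.

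Ratios of reads within a library do not depend on how the libraries were scaled. For each 100 reads of Hspa5 there were between 19.2 (library 4) and 37.7 (library 8) reads of Hsp90b1. Libraries 6, 8 and 9 had 36.7 to 37.7 and libraries 2, 3, 5 and 7 had 25.3 to 26.8, so this ratio followed neither the level of Hspa5 nor libraries 3 and 4. Sdf2l1 had 1.02 reads per 100 of Hspa5 in library 3 (interval 0.806 to 1.27) and 2.48 in library 4 (interval 2.23 to 2.75), against 7.89 to 10.7 in the other libraries. Sdf2l1 was thus lower in libraries 3 and 4 also relative to Hspa5, by more than counting error.

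Asns had 5.11 to 8.67 reads per 100 of Hspa5 over all 9 libraries, a 1.70-fold spread. The values for libraries 3 and 4 were 5.15 and 6.52, inside the span of the other 7. Trib3 had 14.2 reads per 100 of Hspa5 in library 3, 2.22 in library 4 and 0.197 in library 8, and 0.0111 to 0.0557 in the rest. Within the amino-acid response pair there were 276 reads of Trib3 per 100 of Asns in library 3 (interval 246 to 310) and 34.1 in library 4 (interval 29.96 to 38.8). Library 8 had 2.61 (interval 1.84 to 3.60), and the other 6 had 0.148 to 1.01.

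**Figure D2:**
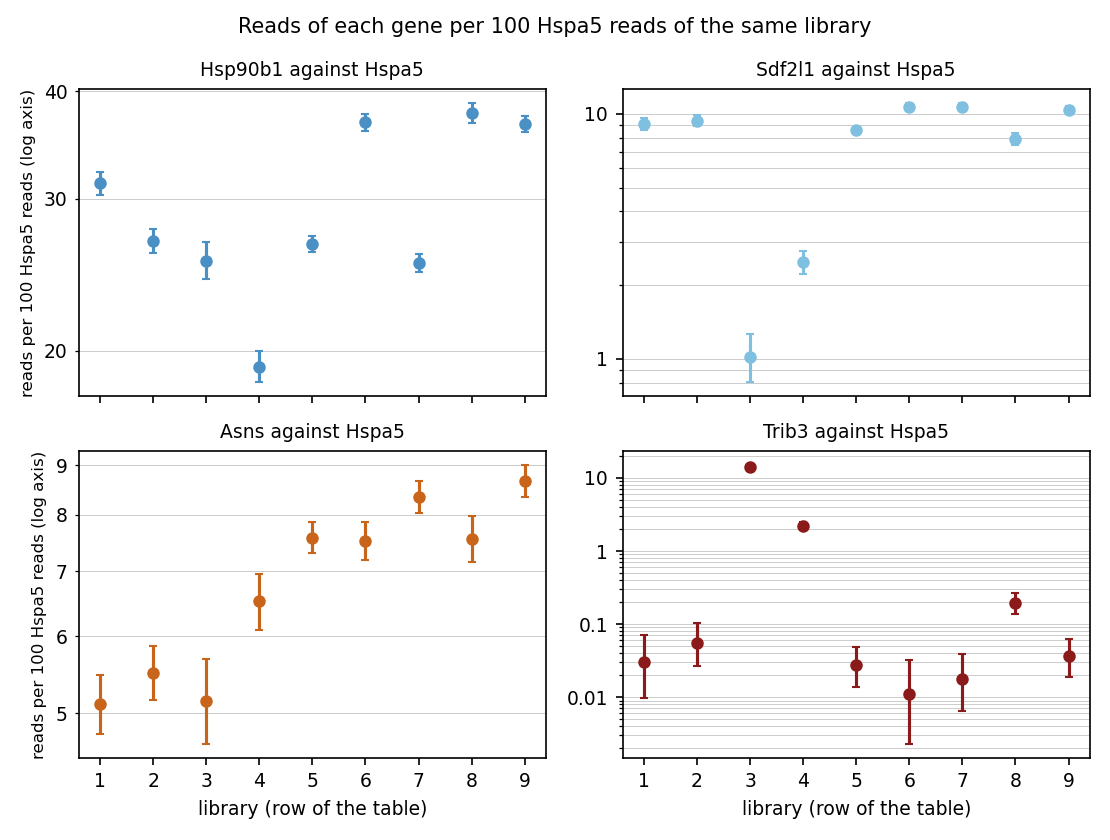
Reads of Hsp90b1, Sdf2l1, Asns and Trib3 per 100 Hspa5 reads of the same library (vertical, log axes that differ between panels) in libraries 1 to 9 (horizontal), with 95% exact counting intervals as bars. Asns lies between 5.11 and 8.67, Sdf2l1 drops to 1.02 and 2.48 in libraries 3 and 4, and Trib3 reaches 14.2 and 2.22 there.

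The chaperones were set against the amino-acid response genes as the difference of their mean log2(normalized count + 1) within a library. These means are not per length, so only the change of the difference between libraries can be read. The difference of the chaperones and the mean of Asns and Trib3 was 0.69 in library 3, 2.14 in library 4 and 4.65 to 6.72 in the other 7, a range of 6.03. Against Asns alone it was 1.42 in library 3, 1.37 in library 4 and 1.84 to 2.58 in the rest, a range of 1.21. Against Trib3 alone it was -0.04 in library 3, 2.92 in library 4 and 7.26 to 11.27 in the others, a range of 11.31. The shift in the joint difference was thus carried by Trib3, and the range was 2.07 without libraries 3 and 4.

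**Figure D3:**
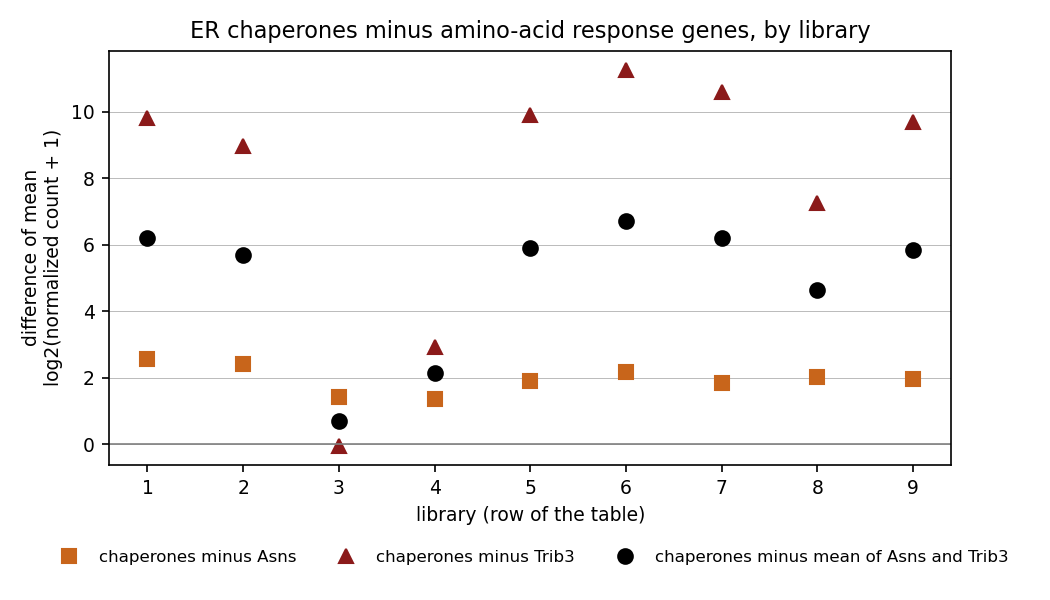
Difference of the mean log2(normalized count + 1) of Hspa5, Hsp90b1 and Sdf2l1 and that of Asns, of Trib3 or of both (vertical) in libraries 1 to 9 (horizontal). The difference from Asns spans 1.21 and that from Trib3 spans 11.31.

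As a measure of likeness that ignores scaling apart from the pseudocount, the SD over the 9 libraries of the log2 ratio of 2 genes was used, smaller being more alike. Between members it was 0.30 for Hspa5 and Asns, 0.33 for Hspa5 and Hsp90b1 and 0.36 for Hsp90b1 and Asns. It was 1.04 to 1.18 between Sdf2l1 and these 3 genes, and 3.41 to 4.57 between Trib3 and each of the other 4. Without libraries 3 and 4 the order turned round. Sdf2l1 was then most like Hspa5 (0.17), followed by Hsp90b1 (0.25) and Asns (0.30). Trib3, which rested on 3 to 38 reads in these libraries, had 1.20 to 1.39 against the others. The order of likeness to Hspa5 among Asns, Hsp90b1 and Sdf2l1 thus rested on libraries 3 and 4, and it was not tested.

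The genes most like each member were named by the same measure. For Hspa5 these were Actl6a (0.09), Wdr74 (0.10), Mrpl20, Cyc1 and Mrps26 (0.11 each), where the median tested gene had 1.23. For Hsp90b1 they were 1810014B01Rik (0.10), Nap1l1, Orc6, Tdp1 and Ppm1g (0.13 to 0.14). For Sdf2l1 they were Ccnb2, Cdc20, Kif22, Cdk1 and Tacc3 (0.17 to 0.21), which encode proteins of mitosis. Cdk1 itself had a median of 1586 and ranged from 63.7 to 2823 normalized counts. For Asns they were Mroh8, Tomm40, Lrrc59, Umps and Idh3a (0.17 to 0.19). For Trib3 they were Tinagl1 (0.43), Mettl7a1 (0.58), Fscn1 (0.67), Upp1 (0.69) and Ptger4 (0.70). Trib3 had only 3 to 38 reads outside libraries 3 and 4, so counting error adds to these larger SDs. Its share in them was not tested. Fscn1 had a median of 0.72 normalized counts, a lowest value of 0 and a highest of 88.5. Its 2 highest values were in libraries 3 and 4, so the filter can have favoured its likeness to Trib3. Tinagl1 had a median of 12.3 and reached 1372 normalized counts. Ranked over the 7 libraries without 3 and 4, these genes took places between 2 and 98 among the 2341 for their member. The part of cell type or of cell division in this likeness was not tested.

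Other genes of both pathways were taken from lists, and the direction of each was read from libraries 3 and 4. Of 78 genes of ER protein folding and the unfolded protein response, 23 were measured and passed the filter. Of these, 19 had their 2 lowest values in libraries 3 and 4, including the 3 chaperones, and 4 had their 2 highest values there. The background is 41% and 51% of the tested genes. On the authors' scaling the median range of the list was 4.27-fold, against 6.16-fold over all tested genes. Of the 23, 13 ranged at least 4-fold, where 66.4% of all tested genes did. Scaled to the table total, the list's median range was 2.44-fold against 7.70-fold. Under median-of-ratios scaling it was 6.55-fold against 6.56-fold, so the narrower range of the list depended on the scaling. All 23 were called by the chi-square test, against 98.7% of all. Without libraries 3 and 4 none of the 22 that passed the filter ranged 4-fold, against 443 of 2133 genes.

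Rpn1 and Rpn2, which encode subunits of the oligosaccharyltransferase, were the most abundant of the list after Hspa5, with medians of 22295 and 16795 normalized counts. Rpn1 ranged 5.90-fold, from 7110 in library 3 to 41931 in library 7, and Rpn2 ranged 3.00-fold between the same libraries. Spcs3, a subunit of the signal peptidase, ranged 12.4-fold, from 298 in library 3 to 3708 in library 6. The 4 genes that went the other way are named after their values were seen. Dnajb9, a co-chaperone of BiP known as a target of XBP1, had 636 and 470 normalized counts in libraries 3 and 4 and 135 to 223 in the others. Edem2, a mannosidase of ER-associated degradation, had 2910 and 2298, against 960 to 1451. Sdf2, the paralog of Sdf2l1, had 254 and 260, against 105 to 200, opposite to Sdf2l1, though under median-of-ratios scaling these were not its 2 highest values. Wfs1, an ER membrane protein, did not exceed 24.0 and was at 0 in library 2. It passed the expression filter through libraries 3 and 4 alone, so its direction was set by the filter.

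Of 67 genes of the amino-acid response and ATF4 targets, 13 were measured and passed the filter. Of these, 10 including Asns had their 2 lowest values in libraries 3 and 4, and 3 including Trib3 had their 2 highest values there, where the shares over all tested genes are 41% and 51%. On the authors' scaling the median range was 9.13-fold, against 6.16-fold over all tested genes. Of the 13, 10 ranged at least 4-fold, as 66.4% of all did. Scaled to the table total, the list's median range was the narrower, at 3.97-fold against 7.70-fold. Under median-of-ratios scaling it was 14.9-fold against 6.56-fold, so the direction of this difference depended on the scaling. All 13 were called by the chi-square test, against 98.7% of all. When libraries 3 and 4 were left out, 3 of 13 ranged at least 4-fold, against 20.8% of the 2133 genes then tested. Shmt2, a mitochondrial serine hydroxymethyltransferase, ranged 9.13-fold, from 1300 in library 3 to 11870 in library 7. Slc1a5, a transporter of glutamine, and Eprs, a transfer RNA synthetase, had medians of 7645 and 4935 and ranged 3.30-fold and 2.71-fold.

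Nupr1 and Osgin1 were the other list genes that were highest in libraries 3 and 4. Nupr1, a stress-response regulator of transcription, had 10230 and 15198 normalized counts there, 3431 in library 8, 1412 in library 9 and 150 to 581 in the rest. Unlike Trib3, it was higher in library 4 than in library 3. Osgin1, a gene of the oxidative stress response, had 561 and 246 in libraries 3 and 4, and 6.56 to 29.0 in the other 7. The genes for ATF4 itself, CHOP and XBP1 were on the lists searched, but were not among the 2402 deposited genes. Whether reads of them were detected is not known.

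**Figure D4:**
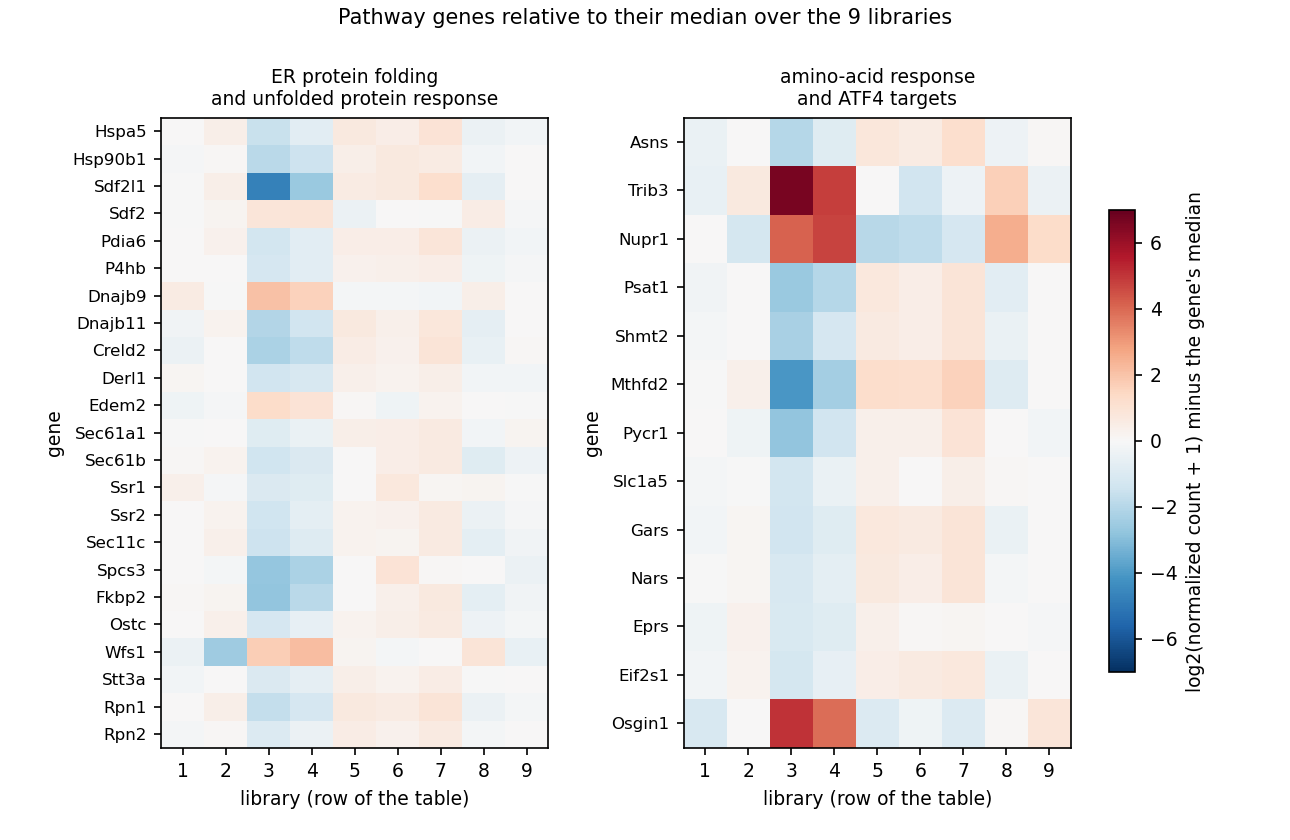
Log2(normalized count + 1) minus the gene's own median over the 9 libraries (colour, red above and blue below) for the 23 measured genes of ER protein folding (left) and the 13 of the amino-acid response (right), with libraries 1 to 9 across. In libraries 3 and 4 most rows are below their median, whereas Trib3, Nupr1, Osgin1, Dnajb9, Edem2, Sdf2 and Wfs1 are above it.

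Plasma cells, which carry very high levels of ER chaperones, could not be judged by their markers, since 0 of 11 were measured, and the 1 measured of 7 B lineage markers, Vpreb1, did not exceed 12.3 normalized counts. The 4 measured of 11 granulocyte and monocyte markers summed to 12916 and 12329 in libraries 3 and 4 and to 366 to 2142 in the others. This sum was carried by Prtn3, which ranged from 313 to 12248, while Csf1r and Cebpa, with at most 82.6 and 41.2 normalized counts, had their 2 lowest values in libraries 3 and 4. The 2 measured of 6 endothelial markers summed to 1213 and 2110 in libraries 3 and 4, against 4.20 to 48.2 in the others. The 3 measured of 7 T and NK cell markers summed to 723 and 1180 there, against 2236 to 27179. Nkg7, which ranged from 185 to 27161, carried this sum. Lck and Klrb1c, with at most 44.8 and 493 normalized counts, had their 2 highest values in libraries 3 and 4. The 2 measured of 12 erythroid markers summed to 7.1 and 14.9 in libraries 3 and 4, against 13.6 to 1539. Of the mast cell and macrophage lists 1 marker each was measured, with at most 103 and 39.8 normalized counts. The part of these markers in the levels of Trib3 or the chaperones was not tested, nor was that of the stem cell and megakaryocyte markers above. In bulk samples fewer cells of a type and less RNA per cell cannot be told apart.

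The size of the ranges depended on the scaling of the libraries, and the opposite course of Trib3 did not. Scaling to the total of the table raised library 3 by 0.64 on the log2 scale relative to the deposited values, and median-of-ratios scaling lowered it by 0.52 (log2 shift -0.52). The range was then 2.44-fold or 9.17-fold for Hspa5 and 3.95-fold or 14.8-fold for Asns. Library 3 was lowest for the chaperones and Asns and highest for Trib3 under all 3 scalings. Under the table total the next lowest library was 8 for Hspa5 and 1 for Asns in place of library 4. Then 10 of the 23 ER genes and 6 of the 13 amino-acid response genes had their 2 lowest values in libraries 3 and 4, as did 24.2% of tested genes. The share of tested genes with their 2 highest values there was 55.6% under the table total and 38.6% under median-of-ratios scaling.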

How the data were processed

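Messenger RNA of 9 sorted bone marrow samples was sequenced. Per the labels' protocols, Trizol was used for extraction and a NEBNext Ultra kit for the libraries. The submitters' processing notes name mm10, Bowtie2, STAR and DESeq without roles or versions. How reads were counted and scaled, and how genes were picked, is not given in the sources used here. Deposited was 1 table of signal values, normalized counts per gene as the authors scaled them, for 2402 genes in 9 unnamed rows.

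Low values of each row were whole multiples of 1 step (0.724 to 1.96 normalized counts per read), and dividing by it gave whole reads within 0.1 for 100% of values. Summed over these genes, libraries held 1790670 to 4373460 reads, which is not their full depth. For a gene with 0 reads, the limit of 3 reads equals 2.17 to 5.89 normalized counts. Ratios of 2 libraries or 2 genes have exact conditional binomial intervals at 95%. Chi-square tests of reads against 1 rate were run on 2341 genes (10 normalized counts or more in 2 libraries or more) and adjusted over all of them at 0.05. Ranges and differences used log2 values with a pseudocount of 1.

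The members, lists, statistics and motifs were chosen with earlier results of these data known. Genes named per list were the top 3 by median and the top 3 by range, and per member the 5 most like it. Gene coordinates are from GENCODE M21. The planned limma comparisons between groups were not run, since no row has a group. Steps were tested on simulated data. Python 3.11.15, numpy 2.4.6, scipy 1.17.1 and pandas 2.3.3 were used.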

Additional observations from a re-analysis of the deposited data

How the results depend on the processing

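No paired analysis was possible because the rows of the table carry no sample names, and the comparisons between groups with their alternatives were not run. Pseudocounts of 0.5 and 5, and values under 3 reads raised to 3 reads, left the ranges of the 5 members within their counting intervals. Scaled to the table total the ranges were 2.44-fold for Hspa5, 3.03-fold for Hsp90b1, 25.4-fold for Sdf2l1 and 3.95-fold for Asns, and with median-of-ratios scaling 9.17-fold, 9.11-fold, 94.7-fold and 14.8-fold in the same order. Trib3 ranged 253-fold with a pseudocount of 1, and 470-fold and 167-fold under these scalings, inside its wide counting interval. With libraries 3 and 4 left out, which was decided after the values were seen, Hspa5 ranged 2.58-fold, Hsp90b1 1.82-fold, Sdf2l1 3.48-fold, Asns 3.15-fold and Trib3 7.85-fold, and 1864 of 2133 genes passed the chi-square test. Leaving out 1 library at a time gave 3.16 to 5.61 for Hspa5, 4.396 to 5.88 for Hsp90b1, 13.6 to 58.3 for Sdf2l1, 4.05 to 9.09 for Asns and 70.6 to 253 for Trib3, each lowest without library 3.

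The range over libraries of the chaperones minus the amino-acid response genes, 6.03 in log2, was 4.999 without Sdf2l1, 1.21 without Trib3, 2.07 without libraries 3 and 4, and 4.58 to 6.03 with 1 library left out. The chi-square count of 2311 was 2351 with no filter on low values, 2317 with rates set by the table total, and 2121 to 2311 with 1 library left out. Depth limits Trib3 most, at 3 to 38 reads outside libraries 3 and 4.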
